A study of Drosophila melanogaster with 12 samples.

Results

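The genes described here are those that moved the same way in tko25t males and tko25t females. For each of 11547 probe sets of the array the difference between mutant and wild type was averaged over the sexes, and the probe sets kept were those that passed the test of that average and had the same direction in every pairing of a mutant array with a wild-type array of the same sex, 9 pairs in males and 9 in females. There were 533 such probe sets, 347 higher and 186 lower in the mutant, out of 18769 probe sets on the array that are not controls. They stand for 459 named genes, with 25 probe sets that match several genes and 37 that match no gene symbol in the annotation table used.

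The tko gene encodes the protein S12 of the small subunit of the mitochondrial ribosome, and tko25t is a point mutation in it. A fly with this mutation makes too little of the proteins encoded by mitochondrial DNA, which are subunits of the respiratory chain and of ATP synthase, and it is known for slow development and for seizures after a mechanical shock. When respiration is short, cells are known to regenerate NAD+ by making lactate, to draw on amino acids and fats as fuel and to change the uptake of nutrients, so genes of those pathways are given below in turn.

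Whole adult flies aged 1 day were used, 3 RNA samples from independent groups of flies in each of 4 groups, each on its own array. Mutant flies were the F1 progeny of homozygous tko25t Canton S mothers and tko25t Oregon R fathers, after the mutation had been outcrossed to both strains, and wild-type flies were the F1 of the same 2 strains without the mutation. As tko lies on the X chromosome, mutant males carry only the mutant copy and mutant females carry it on both X chromosomes, and all mutants also had mutant mothers; the females were virgins. Signals are on the linear scale of the array software, and log2 differences were taken after adding 11.6 to each signal, so that they understate the change of dim probe sets; folds are ratios of group mean signals. In whole flies, fewer cells of a type and less RNA per cell cannot be told apart.

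Within a group the arrays correlated at 0.9523 to 0.9872 on the log2 scale. The tko transcript itself did not pass the test, with a log2 difference of 0.21 ± 0.10 (SE, limma adjusted p = 0.211), which checks no label because the mutation changes the protein. The control probe set for the 3' part of 18S ribosomal RNA averaged 1724 in wild-type and 98.6 in mutant males, against 86.2 and 53.8 in females, so that RNA preparation and genotype cannot be told apart in males. Testis markers summed to at least 39360 on every male array and eggshell and yolk markers to at least 69973 on every female array. Among males, summed eggshell and yolk signals were 5808 and 3455 on wild-type male arrays 1 and 2, against 300 to 526 on the other 4 male arrays, and the summed testis signal was 3106 on mutant female array 1 against 752 to 1557 on the other 5 female arrays. Accessory gland transcripts, also male, summed to 10119, 1589 and 4695 on the mutant and to 5923, 4171 and 5948 on the wild-type female arrays, against at least 69944 on every male array, so other female arrays also had such signal and the 3 arrays are those where other-sex sums were highest. Without those 3 arrays fewer probe sets than 533 met the rule, although it then asked for 1 direction only in the pairs that remained. In that fit wild-type males keep 1 array that is assumed to vary like the other groups.

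Of the probe sets tested, 8.42% were called in the average over the sexes, 5.55% higher and 2.87% lower in the mutant, and 4.62% were called with the same direction in all 18 pairs. The direction in the pairs and the average rest on the same 12 arrays, so the count of 533 describes the rule and is no test. A further 117 tested probe sets had the same direction in all 18 pairs without being called, at adjusted p of 0.0501 to 0.297 and log2 differences of at most 0.68 in size, and 107 were too dim to be tested. The last probe sets inside the limit were CG8320 (-0.42, adjusted p = 0.0496) and Fhos (-0.33, adjusted p = 0.0496), and the first outside were CG4390 (-0.21, adjusted p = 0.0501) and Nup188 (-0.39, adjusted p = 0.0504). Conversely, 439 called probe sets had at least 1 pair in the other direction or without a difference.

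Most of the shared differences were modest. The median log2 difference was 0.60 among the risers and -0.50 among the fallers, against -0.03 over all probe sets tested, and the smallest were 0.22 and -0.22. Only 15 risers and 4 fallers passed 4-fold, and 72 and 28 passed 2-fold, whereas 169 risers and 109 fallers were under 1.5-fold. As a description of values that the rule used, the medians were 0.60 in males and 0.57 in females for the risers and -0.53 and -0.48 for the fallers. The difference lay within 0.25 log2 units between the sexes for 300 probe sets and was more than 1 unit apart for 12. In the test of the sex difference itself, which called 0.104% of all probe sets, 1 of the 533 was called, Sdic3, and 81 had an unadjusted p under 0.05.

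Tested on their own arrays, the sexes did not give equal numbers of calls. The fit of the male arrays called 11.1% of the probe sets tested and that of the female arrays 2.05%. Of the 533 shared probe sets 324 were called in the male fit and 120 in the female fit. These counts overlap: 91 were called in both with 1 direction, 233 only in males, 29 only in females and 180 in neither. Of the 533, 499 were tested in both fits, and the rest were too dim in 1 sex to be called there. A gene called only in males is not thereby shown to differ between the sexes.

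**Figure D1:**
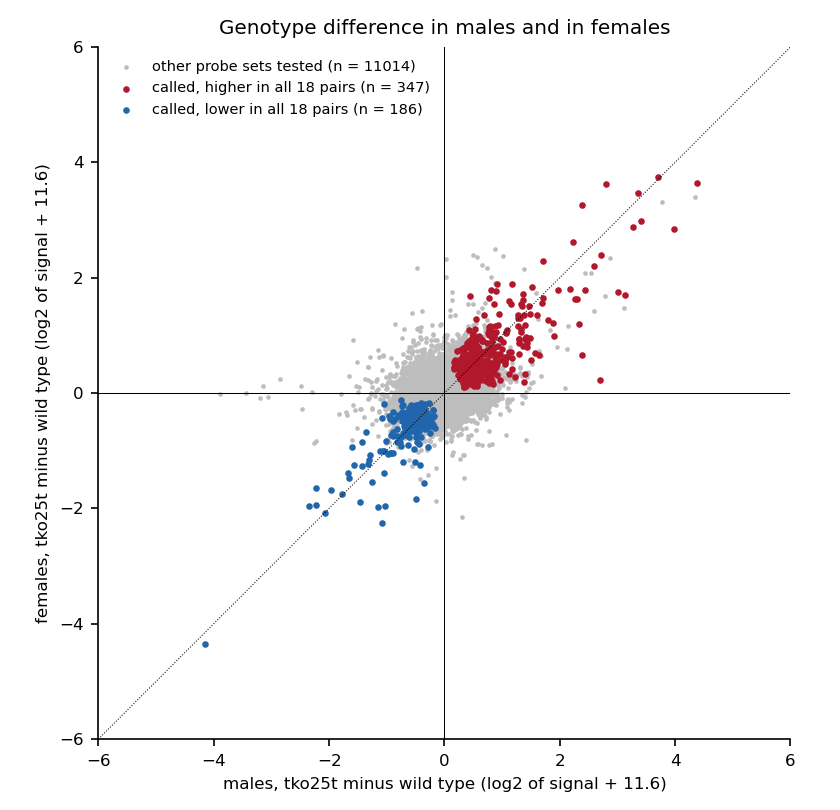
Each point is 1 of the 11547 probe sets tested, with the log2 difference tko25t minus wild type in males on the horizontal axis and in females on the vertical axis; red points are the 347 shared risers, blue points the 186 shared fallers and grey points the rest. The coloured points lie in the quadrants where both sexes have the same sign, and Sdic3 is the only one of them whose difference between the sexes passed the test.

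The rule asks for 1 direction in both sexes, which a transcript near background in a sex can hardly meet, so the levels of the shared genes are given as a description. Their median signal over all arrays was 226, against 140 for all probe sets tested. Of the 533, 6 (1.13%) had a wild-type signal more than 2 log2 units higher in males than in females, against 12.5% of all probe sets tested, and 14 (2.63%) were that much higher in females, against 5.91%.

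The largest rise was that of Fbp1, which encodes a receptor that larval fat-body cells use to take up storage proteins. Its signals were 1717.8, 737.8 and 2773.9 in mutant males against 10.9, 218.7 and 67.1 in wild-type males, and 1535.7, 50.4 and 333.6 in mutant females against 5.7, 5.5 and 45.8 in wild-type females. The log2 difference was 4.01 ± 0.74 (SE, limma adjusted p = 0.00569), with the groups close in females, where mutant array 2 exceeded the highest wild-type array by little, and in females alone the adjusted p was 0.147. Summed signals of 10 larval fat-body genes, Fbp1 among them, ranged from 8242 to 13627 in mutant against 5274 to 5607 in wild-type males, and from 4240 to 9569 against 4029 to 5145 in females; the part of remaining larval fat body in the result was not tested.

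CG5953 gave a large rise of nearly equal size in both sexes. Probe set 1632683_s_at read 7369.5, 7444 and 6133.6 in mutant against 522.8, 508.5 and 538.6 in wild-type males, and 5586.6, 4933.6 and 5033.8 against 283.9, 574.6 and 323.8 in females. That is 13.3-fold in males and 13.2-fold in females (log2 difference 3.72 ± 0.14, adjusted p = 1.56e-08), and the groups do not overlap in either sex, as the rule requires.

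Digestive and catabolic enzymes were among the other large rises. CG17192 encodes a lipase of the secreted family that splits dietary fat, and its signals of 209.4, 224.8 and 120.7 in mutant males and 353, 367.7 and 311.2 in mutant females compared with 7, 8.9 and 42.1 and with 15.6, 34.9 and 7.3 in the wild type. It rose 9.57-fold in males and 17.9-fold in females (3.21 ± 0.28, adjusted p = 2.80e-05), with wild-type arrays near the dim end of the scale. CG3819, annotated as an endonuclease that cuts DNA and RNA, read 878.6, 874.5 and 524.3 against 113.6, 124.5 and 164.8 in males and 1236, 1369.1 and 1519.4 against 114.8, 128 and 155.4 in females (2.82 ± 0.14, adjusted p = 1.56e-07). A further probe set, 1630555_at, which the annotation assigns to both CG33346 and Sid, the latter a stress-induced DNase, had 304.9 to 309 in mutant and 47.4 to 66.2 in wild-type males and 360.7 to 380.5 against 41.7 to 64.1 in females (2.42 ± 0.10, adjusted p = 4.20e-08).

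Several other large rises have no single symbol in the annotation. Probe set 1637046_at, which the study names l(2)03659 and describes as an ABC transporter related to the Mdr family, read 191, 239.6 and 398.9 in mutant against 4.2, 2.1 and 13 in wild-type males, and 178, 167.5 and 182.3 against 17.3, 20 and 8 in females (3.41 ± 0.20, adjusted p = 7.26e-07). An unnamed probe set, 1626966_s_at, read at least 148 in every mutant and at most 13.9 in every wild-type male sample and 240.8 to 363.9 against 14.5 to 44.5 in females (3.20 ± 0.22, adjusted p = 3.45e-06). Both were at or near background on the male wild-type arrays, where a ratio is uncertain. Probe set 1634409_at, assigned to CG42586 and CG31775, rose by 3.41 ± 0.52 (adjusted p = 0.00165), and 1634097_s_at, assigned to the twin genes Acsx1R and Acsx1L of the acyl-CoA synthetase family, by 2.40 ± 0.35 (adjusted p = 0.00132). Probe set 1625153_at, assigned to p24-2 and to the Unc-115 genes, rose by 2.01 ± 0.25 (adjusted p = 0.000365). The named gene CG12057 read 997.6, 1270.4 and 734.7 against 169, 79.4 and 193.7 in males and 2407.9, 3141.4 and 2574.5 against 723.1, 426 and 411.8 in females (2.56 ± 0.21, adjusted p = 1.60e-05).

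One heat-shock probe set was among the large rises. Probe set 1629061_s_at, assigned to Hsp22, the small heat-shock protein of the mitochondrial matrix, and to CG4456, read 425, 462.4 and 1476.9 in mutant against 61.3, 63.1 and 74 in wild-type males and 697.5, 172.7 and 259.7 against 84.4, 109.3 and 77 in females (2.41 ± 0.34, adjusted p = 0.00100). Mutant male array 3 and mutant female array 1 were the highest of their groups, and the same arrays had the highest summed larval fat-body signals of their groups. Of 10 heat-shock genes in a list that left this probe set out, 1 was called higher and 1 lower, neither in all 18 pairs, with a median of -0.01.

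**Figure D2:**
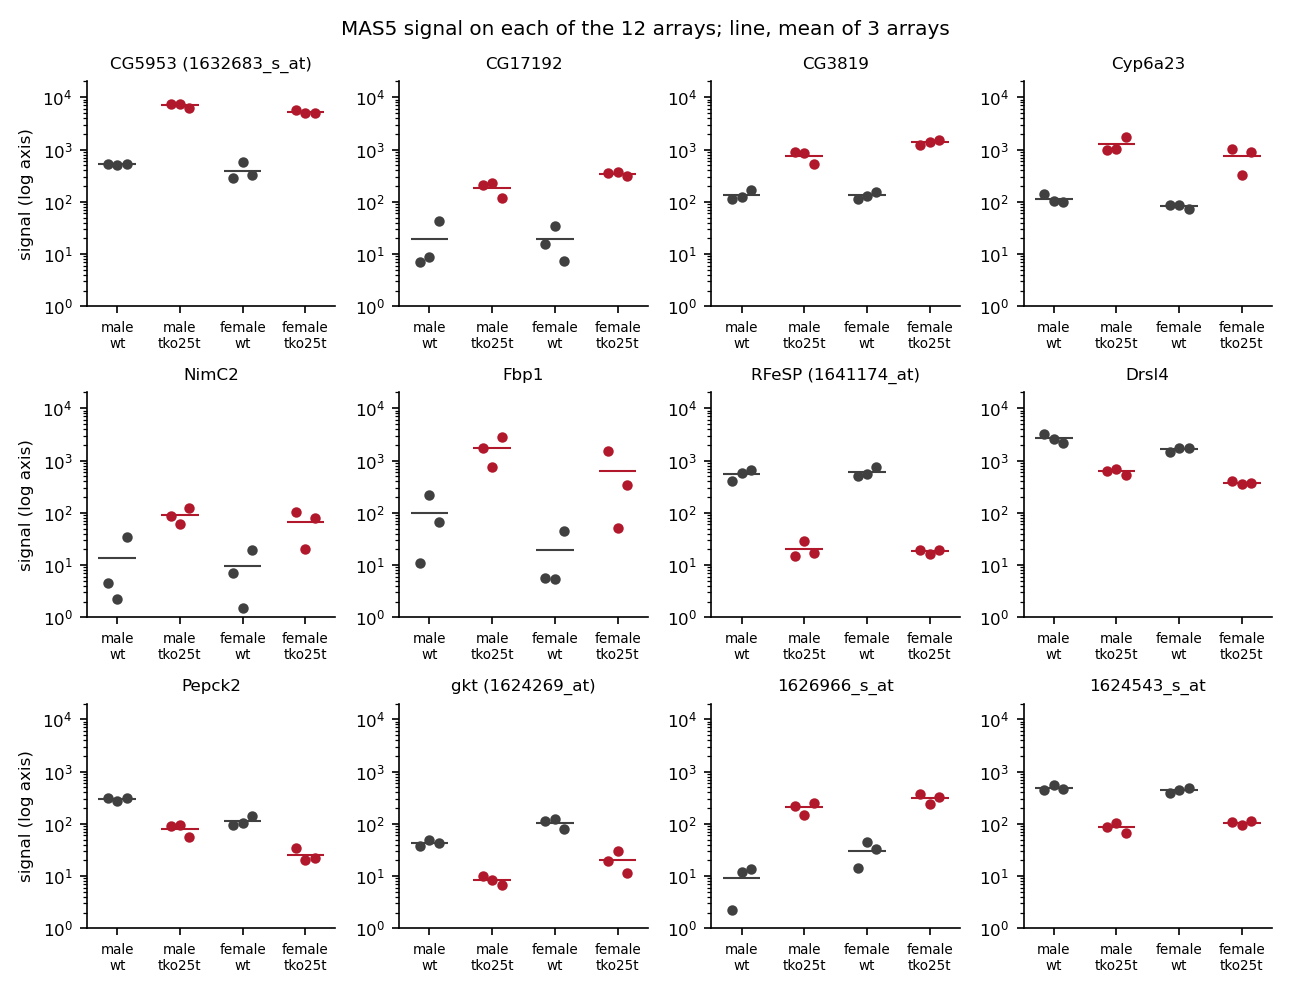
Each panel shows 1 gene or probe set, each point the signal of 1 array on a logarithmic axis, dark for wild type and red for tko25t, with a line at the group mean; the columns are the 4 groups of 3 arrays. For CG5953, RFeSP and Drsl4 the arrays of a group lie close together, whereas for Fbp1 and NimC2 the 3 mutant female arrays are spread, with array 2 the lowest.

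The largest fall was that of a probe set of RFeSP, the gene of the Rieske iron-sulfur protein, a catalytic subunit of respiratory complex III. Probe set 1641174_at read 14.6, 28.3 and 17.3 in mutant against 413.8, 566.4 and 666 in wild-type males, and 19.5, 16 and 19 against 510.7, 547.6 and 745.3 in females. It was 27.3-fold lower in mutant males and 33.1-fold lower in mutant females (log2 difference -4.24 ± 0.15, adjusted p = 1.15e-08). The other RFeSP probe set, 1631856_a_at, lay between 2446.2 and 3761.3 on all 12 arrays and had a difference of -0.05 ± 0.09 (adjusted p = 0.803). Of the pair only 1641174_at fell, and which transcript form or sequence it detects was not tested.

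Among immune peptides Drsl4, of the family of the antifungal peptide drosomycin, had the largest fall. It read 634.2, 684.6 and 539.5 in mutant against 3263.8, 2632.9 and 2131.8 in wild-type males, and 401.8, 363.1 and 367.3 against 1481.4, 1711.4 and 1705.7 in females. The ratio was 4.32 in males and 4.33 in females (-2.08 ± 0.10, adjusted p = 1.56e-07), and the spread within each group was small beside it.

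DNA repair genes were also among the falls. The study names 1636758_s_at as phr, the photolyase that reverses damage by ultraviolet light, and it read 93.3, 85.4 and 100.2 against 353, 279.7 and 327.9 in males and 185.1, 243.1 and 241.3 against 639.7, 646.1 and 610.3 in females (-1.56 ± 0.09, adjusted p = 6.55e-07). A probe set of the same name, 1630728_a_at, fell by 1.28 on the log2 scale (SE 0.11, adjusted p = 3.02e-05). The gkt gene encodes tyrosyl-DNA phosphodiesterase, which removes topoisomerase trapped on DNA; 1624269_at read 10, 8.4 and 6.6 against 37.3, 48.9 and 43.2 in males and 19.7, 29.9 and 11.4 against 112.2, 122.8 and 79.7 in females (-1.67 ± 0.16, adjusted p = 5.23e-05), and 1626850_s_at differed by -0.61 ± 0.12 (adjusted p = 0.00948). In a list of 24 nuclease and DNA repair genes 2 rose and 2 fell, all in all 18 pairs, and the others did not pass; CG3819 and CG6839 (1.06 ± 0.11, adjusted p = 0.000101), both annotated as nucleases, were the risers. The study named members of this list from these arrays, so the count is not independent evidence of direction.

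The other large falls included further secreted or signalling proteins. Nplp4, a neuropeptide-like precursor, read 19, 3.9 and 69 in mutant against 80.8, 125.1 and 172.2 in wild-type males and 68.1, 3.2 and 41.6 against 95.2, 81.3 and 197.9 in females (-1.83 ± 0.45, adjusted p = 0.0282), a spread wide enough that the call was lost under 7 of 25 alternative settings. CG32523, of the trypsin-like serine proteases, differed by -1.94 ± 0.18 (adjusted p = 3.37e-05) with mutant male signals of 5.2 to 8.8 that are near background. CG1648 differed by -1.56 ± 0.23 (adjusted p = 0.00154) and CG42822 by -1.40 ± 0.22 (adjusted p = 0.00237), both of unknown function. Unnamed probe sets 1624543_s_at (-2.16 ± 0.11, adjusted p = 1.56e-07), 1629760_s_at (-2.08 ± 0.15, adjusted p = 6.07e-06), 1630934_at (-1.67 ± 0.13, adjusted p = 6.91e-06) and 1626392_s_at (-1.40 ± 0.09, adjusted p = 1.76e-06) complete the list with path, a transporter of the SLC36 family (-1.49 ± 0.11, adjusted p = 6.63e-06), and Npc2g, of the lipid-binding Npc2 family (-1.53 ± 0.13, adjusted p = 1.48e-05).

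Lists of genes by role are given below with the number of genes tested, called and called in all 18 pairs, beside 9524 genes of which 8.81% were called (563 higher, 276 lower, of which 301 and 154 in all 18 pairs) with a median log2 difference of -0.02. A gene with more than 1 probe set is represented by its brightest. Many of the lists hold genes that the study singled out from these arrays, and for those the counts are not independent evidence of direction.

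A pair of adjacent genes for enzymes that make phosphoenolpyruvate moved in opposite directions. Pepck1 and Pepck2 each encode phosphoenolpyruvate carboxykinase, the enzyme that turns oxaloacetate into phosphoenolpyruvate at the start of glucose synthesis. Pepck1 read 6443.4, 8544.7 and 6813.8 in mutant against 4341.9, 5313.4 and 2451.3 in wild-type males, and 5130.7, 1941.9 and 4933.8 against 1226.9, 685.3 and 1106.1 in females, a rise of 1.80-fold in males and 3.98-fold in females (1.40 ± 0.26, adjusted p = 0.00569). Pepck2 read 89.1, 95.1 and 55.2 against 311.3, 269.4 and 306.6 in males and 34.3, 20.6 and 21.7 against 95.9, 104.1 and 140.9 in females, 3.71-fold and 4.45-fold lower (-1.77 ± 0.15, adjusted p = 1.60e-05). For both genes the mutant and wild-type arrays were apart in each sex, as the rule requires.

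Within the list of 11 genes for lactate, phosphoenolpyruvate and glyoxylate reactions, which the study in part named from these arrays, 6 were called higher and 1 lower, 4 and 1 of them in all 18 pairs, and the median was 0.34. ImpL3 (probe set 1635227_at by the study's name) encodes lactate dehydrogenase, and with mutant signals of 586.5 to 913.6 against 231.3 to 321.4 in males and 267.4 to 488 against 85.5 to 150.2 in females it rose by 1.43 ± 0.17 (adjusted p = 0.000281). CG10638, an aldo-keto reductase, rose by 0.89 ± 0.09 (adjusted p = 0.000101). The 11 glycolytic genes held no call in either direction in the limma fit (median -0.04), and 1 of them, lower, had an unadjusted p under 0.05.

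Of 30 genes of amino acid and urate breakdown that were tested, 14 were called higher and 2 lower, 8 and 1 of them in all 18 pairs, with a median of 0.39 against -0.02 over all genes. Hpd, the dioxygenase of tyrosine breakdown, read 1773.8, 1901.3 and 2743.1 in mutant against 669.4, 1054.4 and 1105.1 in wild-type males and 1690.5, 565.5 and 1167.4 against 233.3, 175.5 and 488.3 in females (1.53 ± 0.28, adjusted p = 0.00559). CG10621, of the homocysteine S-methyltransferase family, read 1472.7, 1194.3 and 1563.5 against 382.8, 469.2 and 695.2 in males and 893.5, 335.1 and 656.7 against 238.4, 127.1 and 250.2 in females (1.49 ± 0.24, adjusted p = 0.00232). Both were higher on every mutant array of each sex, as the rule requires, and both lost the call without the 3 arrays with the highest other-sex sums (adjusted p = 0.0816 and 0.0508). Smaller rises were those of CG5618, annotated as a decarboxylase (0.94 ± 0.18, adjusted p = 0.00708), and Kyat, an aminotransferase of the kynurenine pathway (0.45 ± 0.08, adjusted p = 0.00387). Probe set 1634658_a_at, without a symbol in the annotation, rose by 0.70 ± 0.08 (adjusted p = 0.000195). The study names it nemy and describes nemy as a mitochondrial glutaminase. The annotation gives the symbol nemy to 1632530_s_at (0.61 ± 0.11, adjusted p = 0.00377), and whether both detect 1 gene was not tested.

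The gene that fell in this list, LKRSDH, encodes the enzyme that starts lysine breakdown. Its signals were 82.5, 86 and 89.1 in mutant against 140.5, 238.7 and 233.2 in wild-type males and 62.9, 41.1 and 61.9 against 82.8, 141.5 and 150.5 in females, 2.38-fold and 2.26-fold lower (-1.06 ± 0.17, adjusted p = 0.00233). The branched-chain amino acids leucine, isoleucine and valine are broken down by another route. A group of 7 of its genes was put together after their values were seen, and 5 of these were risers in all 18 pairs. The group is not the whole route, and the count is no independent evidence of direction. BckdhB, a subunit of the dehydrogenase complex of that route, read 1427.4, 1493.8 and 1582.7 against 806.4, 801.1 and 824.5 in males and 1584.6, 1297.3 and 1629.3 against 883.2, 945.4 and 1018.1 in females (0.77 ± 0.07, adjusted p = 4.54e-05). The aminotransferase Bcat had a difference of 0.74 ± 0.13 (adjusted p = 0.00428), Mccc2, of methylcrotonyl-CoA carboxylase, 0.52 ± 0.08 (adjusted p = 0.0019), CG6638, a dehydrogenase, 0.52 ± 0.09 (adjusted p = 0.00385) and BckdhA 0.35 ± 0.09 (adjusted p = 0.0418), whereas Mccc1 (0.14 ± 0.11, adjusted p = 0.481) and Dbct (0.09 ± 0.06, adjusted p = 0.402) did not pass.

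Of 25 genes of fatty acid oxidation 10 were called higher and none lower, 6 in all 18 pairs, with a median of 0.23 and 20 of the 25 above 0. The thiolase yip2, which cuts acetyl-CoA from the chain, had 2080.1 to 2163.5 in mutant and 966.2 to 1319.6 in wild-type males and 1124 to 1644.6 against 1018.4 to 1092.4 in females (0.61 ± 0.10, adjusted p = 0.00303), so that the groups nearly touched in females. CG9547, an acyl-CoA dehydrogenase, had a difference of 0.61 ± 0.11 (adjusted p = 0.00387, and 0.0542 without the 3 arrays) and CPT2, which hands fatty acids to the matrix enzymes, 0.44 ± 0.09 (adjusted p = 0.00842). In the list of 9 fatty acid synthesis genes 1 was called lower, not in all pairs, and the median was -0.14.

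Among 24 lipases and lipid uptake genes, a list partly named by the study from these arrays, 7 were called higher and 1 lower, 4 and 1 in all 18 pairs, with a median of 0.28. Beside CG17192, the lipase CG5966 read 477.8, 670.7 and 742.6 against 106.7, 145.5 and 94.5 in males and 496.1, 205.1 and 386 against 162.9, 157.4 and 111.6 in females (1.76 ± 0.20, adjusted p = 0.000179), and CG6271 rose by 1.54 ± 0.22 (adjusted p = 0.00108). The gene adp, which limits fat storage, rose by 0.55 ± 0.10 (adjusted p = 0.00453).

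**Figure D3:**
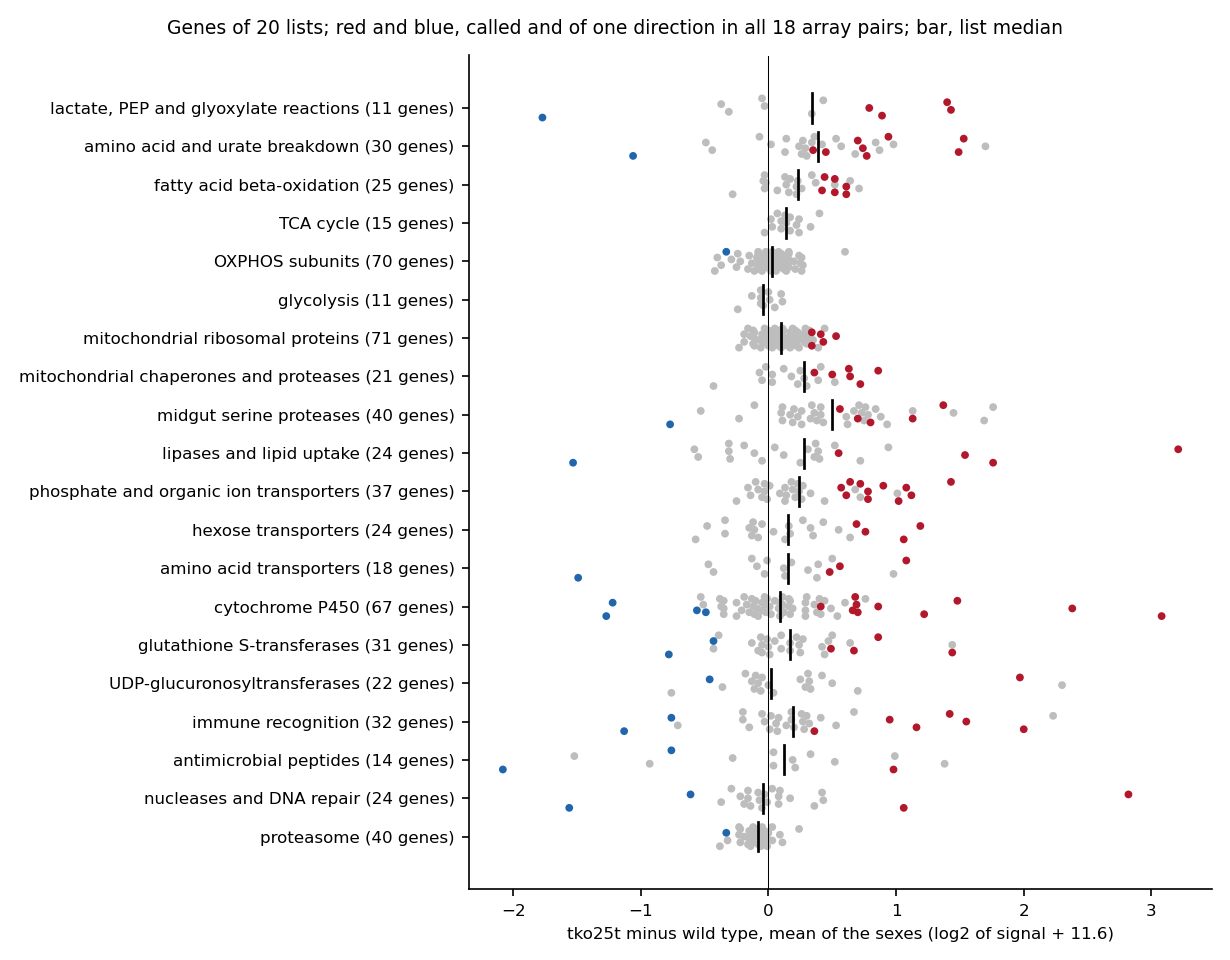
Each dot is 1 gene, placed by its log2 difference tko25t minus wild type averaged over the sexes, with 1 row for each of 20 lists; red dots are shared risers, blue dots shared fallers and the black bar is the median of the list. The medians of amino acid and urate breakdown (0.39) and midgut serine proteases (0.50) lie to the right of those of glycolysis (-0.04) and OXPHOS subunits (0.03).

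Within mitochondria, quality control and the ribosome had risers and the respiratory chain had almost none. Of 21 mitochondrial chaperones and proteases 10 were called higher and 1 lower, 6 and none in all 18 pairs, with medians of 0.51 in males and 0.04 in females. CG11267, the study's Hsp10, the co-chaperonin that closes the folding chamber of Hsp60, read 620.7, 650.1 and 853.2 in mutant against 241.8, 278.1 and 261.5 in wild-type males and 1090.8, 1277.1 and 1202.7 against 821.7, 1006.8 and 1011.9 in females. That is 2.72-fold in males and 1.26-fold in females (0.86 ± 0.09, adjusted p = 0.000134), and the difference between the sexes had an adjusted p of 0.0576. Afg3l2, a protease of the inner membrane, had 1060.5 to 1093 against 564.1 to 594.9 in males and 541.4 to 768.4 against 391.8 to 478.8 in females (0.72 ± 0.09, adjusted p = 0.000266), and Spg7, which works with it, differed by 0.36 ± 0.07 (adjusted p = 0.00974).

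Of 71 mitochondrial ribosomal protein genes 12 were called higher and none lower, 5 in all 18 pairs, with medians of 0.32 in males and -0.08 in females. The largest of the 5 was mRpS6, with 181.2 to 201.4 against 92.8 to 132.6 in males and 249.8 to 300.5 against 196.5 to 222 in females (0.53 ± 0.09, adjusted p = 0.00447), and the others were mRpL55, mRpL28, mRpL4 and mRpS5, at 0.34 to 0.43, of which mRpL55 did not pass without the 3 arrays (adjusted p = 0.0836). For mRpS5 the rise was 1.45-fold in males and 1.12-fold in females. In a group of 11 genes for the assembly of iron-sulfur clusters, collected after values were seen, 5 were called higher and 4 of these in all 18 pairs, with a median of 0.32. Ciao1, which delivers clusters in the cytosol, read 206.6, 198.5 and 226.4 against 99.3, 87.7 and 99.5 in males and 312.3, 270.6 and 277.2 against 187.1, 197.8 and 178.8 in females (0.82 ± 0.08, adjusted p = 4.14e-05), and Nfs1, the cysteine desulfurase that supplies the sulfur, had 0.69 ± 0.10 (adjusted p = 0.000934).

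By contrast, of 70 genes for subunits of oxidative phosphorylation, in which RFeSP is represented by its brighter probe set, 1 was called higher and 3 lower, with a median of 0.03. By the brightest probe set of each gene, the one subunit that fell in all 18 pairs was ATPsynGL, a variant of an ATP synthase subunit with higher signals in males. It stood at 318.7 to 331.9 against 386.6 to 438.6 in males and 25.1 to 39.1 against 41.6 to 43.8 in females (-0.33 ± 0.09, adjusted p = 0.043). The dimmer RFeSP probe set, 1641174_at, also fell in all 18 pairs. Of 15 genes of the citric acid cycle 2 were called higher, neither in all pairs, with a median of 0.14. The 20 antioxidant enzymes had 4 higher and 1 lower (median 0.16), of which Gtpx, a glutathione peroxidase (0.64 ± 0.11, adjusted p = 0.00365), and Prx6a, a peroxiredoxin (-0.44 ± 0.10, adjusted p = 0.0202), had the same direction in all pairs.

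Among transporters of organic ions and sugars every gene called was a riser, and most genes did not pass. In a list of 37 phosphate and organic ion transporters, which the study in part named from these arrays, 14 were called higher and none lower, 11 in all 18 pairs, with medians of 0.26 in males and 0.49 in females; 1 was lower at an unadjusted p under 0.05. The largest was MFS3, at 148.5, 178.9 and 165.8 against 92.2, 21.1 and 84 in males and 143.7, 95 and 136.8 against 33.7, 32 and 41.6 in females (1.43 ± 0.24, adjusted p = 0.00342). CG17752, a solute carrier, rose by 1.12 ± 0.17 (adjusted p = 0.00155) and its neighbour CG16727 by 0.64 ± 0.12 (adjusted p = 0.00758), and CNT2, a nucleoside carrier, rose by 1.02 ± 0.14 (adjusted p = 0.000763).

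Of 24 hexose transporter genes, again partly the study's choice, 4 were called higher and none lower, all 4 in all 18 pairs, and the median over the list was 0.15, with 14 of the 24 above 0 and 3 lower at an unadjusted p under 0.05. CG7882 read 859.3, 807.4 and 685.1 against 378.2, 394 and 436 in males and 651.6, 539.8 and 707.2 against 212.4, 262 and 362.7 in females (1.06 ± 0.12, adjusted p = 0.000197). CG3285 rose by 1.19 ± 0.17 (adjusted p = 0.00133), its neighbour CG15408 by 0.69 ± 0.11 (adjusted p = 0.00253) and CG15406 by 0.76 ± 0.09 (adjusted p = 0.000305). Of 18 amino acid transporters, also partly named by the study, 4 were called higher and 3 lower, 3 and 1 in all pairs, with a median of 0.15; List, a carrier of the neurotransmitter transporter family, rose by 1.08 ± 0.17 by 1632986_a_at (adjusted p = 0.00214, and 0.0520 without the 3 arrays) and by 1.68 ± 0.21 by 1636594_at (adjusted p = 0.000394).

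Several of these transporters act in the Malpighian tubules, the excretory organ of the fly. Of 7 tubule markers 4 were called higher and none lower, 3 in all 18 pairs, with a median of 0.61. Oatp58Db, an organic anion transporter, read 272.6, 253.8 and 209.7 against 160.7, 164 and 141.8 in males and 170.6, 177.6 and 186.6 against 87.5, 84.4 and 88.8 in females (0.78 ± 0.08, adjusted p = 0.000122), and its neighbour Oatp58Da had 0.61 ± 0.10 (adjusted p = 0.00286). The summed signal of the 7 markers was 2537 to 2608 in mutant against 1765 to 2147 in wild-type males and 2260 to 2666 against 1501 to 1699 in females. Whether the mutants held more tubule tissue relative to the rest of the body was not tested.

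The vacuolar proton ATPase is the pump that acidifies vesicles and energises tubule and gut membranes. Of its 32 genes, grouped after their values were seen, 12 were called higher and none lower, 10 in all 18 pairs, with a median of 0.25; 25 lay above 0, and the lowest was Vha36-3 (-0.44 ± 0.16, adjusted p = 0.115). Vha44 read 1600.6, 1469.7 and 1639.7 in mutant against 939.3, 986.7 and 990.3 in wild-type males and 1763.2, 1551.5 and 1879.1 against 1209.5, 1184.9 and 1456 in females (0.56 ± 0.07, adjusted p = 0.000688). The other 9 of the 10 lay between 0.24 for Vha100-2 and 0.49 for VhaSFD.

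**Figure D4:**
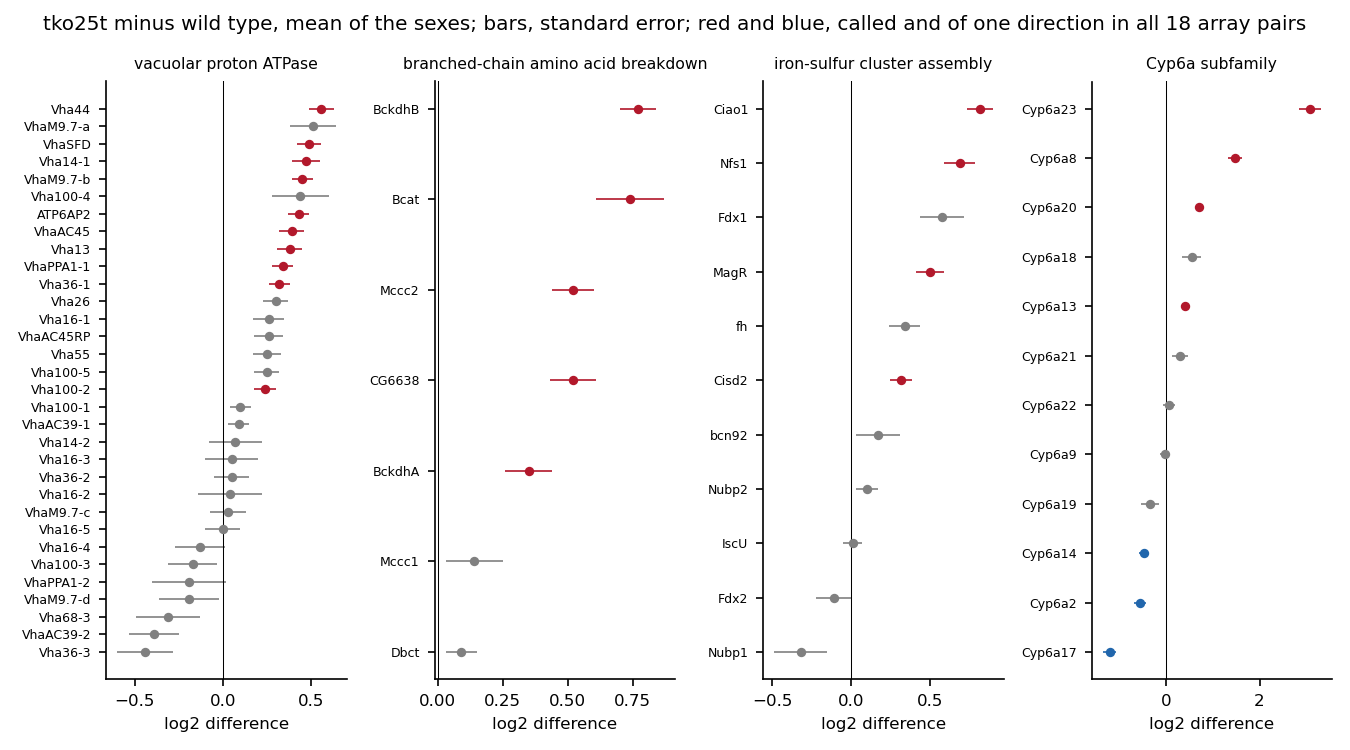
For 4 gene families chosen after their values were seen, each row is 1 gene and each point its log2 difference tko25t minus wild type, with a bar of 1 SE. Cyp6a genes spread from -1.22 for Cyp6a17 to 3.08 for Cyp6a23, whereas the listed genes of branched-chain amino acid breakdown lie between 0.09 and 0.77.

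Detoxification enzymes moved in both directions. Of 67 cytochrome P450 genes 11 were called higher and 4 lower, 10 and 4 in all 18 pairs, with a median of 0.09. Cyp6a23 read 983.4, 1014.4 and 1758.7 in mutant against 142.1, 102.5 and 101.2 in wild-type males and 1002.1, 330.8 and 901 against 84.9, 85.9 and 73.2 in females, a rise of 10.9-fold and 9.16-fold (3.08 ± 0.24, adjusted p = 1.06e-05). The adjacent gene Cyp6a17, which has been linked to temperature preference, read 147.9, 106.4 and 155.8 against 369, 262.9 and 254.9 in males and 144.4, 83.4 and 91.3 against 318.8, 292.7 and 263.5 in females, 2.16-fold and 2.74-fold lower (-1.22 ± 0.15, adjusted p = 0.000284). These are near copies of each other, and whether each probe set is specific was not tested.

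Over the 12 Cyp6a genes, a family singled out after values were seen, 4 rose and 3 fell, all in all 18 pairs. Cyp6a8, known to be inducible by foreign compounds, read 231.8, 325.9 and 235.7 against 94.2, 90.3 and 54.6 in males and 132.7, 79.5 and 102.8 against 35.4, 33.2 and 31.8 in females (1.48 ± 0.15, adjusted p = 9.54e-05). Cyp6a2 had a difference of -0.56 ± 0.13 (adjusted p = 0.0206). Outside that family, Cyp4e3 read 457.8, 524 and 1226.7 against 34.8, 112.3 and 92.2 in males and 450.8, 79.4 and 170.9 against 70, 31.3 and 46.1 in females (2.38 ± 0.39, adjusted p = 0.00279), with mutant female array 2 just above wild-type array 1.

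Conjugating enzymes likewise had members in both directions. Among 31 glutathione S-transferases 6 were called higher and 3 lower, 4 and 2 in all pairs, with a median of 0.17. GstD2 rose by 1.44 ± 0.29 (adjusted p = 0.0103), with a difference of 1.16 that did not pass without the 2 mutant arrays that have the highest larval fat-body sums (adjusted p = 0.0538), and GstE11 by 0.86 ± 0.14 (adjusted p = 0.00296, and 0.0529 without the 3 arrays), while GstE5 had -0.78 ± 0.19 (adjusted p = 0.0231). Among 22 UDP-glucuronosyltransferases 3 were called higher and 1 lower, 1 and 1 in all pairs, with a median of 0.02. Ugt35C1 read 680.1, 446.1 and 640.3 against 93.2, 105.2 and 129.8 in males and 340.6, 136.4 and 224.2 against 62.3, 74.3 and 53.2 in females (1.97 ± 0.19, adjusted p = 5.28e-05).

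Immune genes had members in both directions. Of 32 recognition genes 8 were called higher and 3 lower, 6 and 2 in all 18 pairs, with a median of 0.19. NimC2, of the Nimrod family of phagocytic receptors, read 86.6, 61.7 and 122.2 against 4.6, 2.2 and 34.3 in males and 105.4, 19.9 and 78 against 7.1, 1.5 and 19.6 in females, 6.58-fold and 7.21-fold (adjusted p = 0.00650); mutant female array 2 exceeded wild-type array 3 by only 19.9 to 19.6. Without the 3 arrays the NimC2 difference was 1.27 and did not pass (adjusted p = 0.117). The probe set the study names as lectin-28C rose by 1.55 ± 0.24 (adjusted p = 0.00171) and that of PGRP-SD, a sensor of bacterial cell wall, by 0.95 ± 0.19 (adjusted p = 0.00832). Other sugar-binding lectins differed the other way, Lectin-galC1 by -1.13 ± 0.12 (adjusted p = 0.000119) and lectin-33A by -0.76 ± 0.15 (adjusted p = 0.00904).

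Of 14 antimicrobial peptide genes 2 were called higher and 3 lower, 1 and 2 in all pairs, with a median of 0.12. Drsl5, next to Drsl4 on the chromosome, had -0.76 ± 0.20 (adjusted p = 0.0326), and IM10, an immune-induced peptide, rose by 0.98 ± 0.17 (adjusted p = 0.00428), with 314 to 393.8 against 139.6 to 283.1 in males and 370 to 686.1 against 214.2 to 232 in females. In both lists the study had named several genes from these arrays.

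Gut proteases were more often called than held in every pair. Of 40 midgut serine proteases 21 were called higher and 1 lower, 5 and 1 in all 18 pairs, with medians of 0.30 in males and 0.78 in females. The trypsin epsilonTry read 2762.4, 3926 and 2024.2 against 1140.5, 876.5 and 1202.2 in males and 4543.4, 5409.4 and 5450.1 against 2155.5, 2094.7 and 1776.5 in females (1.37 ± 0.14, adjusted p = 0.000101). Ser6 rose by 1.13 ± 0.14 (adjusted p = 0.000412) from male wild-type signals of 2.3 to 12.1, and Phae2 had -0.77 ± 0.12 (adjusted p = 0.00208). Of 13 midgut markers 7 were called higher and none in all 18 pairs, with a median of 0.41, and their summed signal was 22179 to 33322 against 22654 to 25321 in males, which overlap, and 31657 to 33199 against 22286 to 25491 in females, which do not. Of 13 peritrophin and lysozyme genes 5 were called higher and 1 lower, 2 of the risers in all pairs, with a median of 0.28; the gut mucin Muc68E was one (0.61 ± 0.12, adjusted p = 0.00812). The part of more gut tissue in these values was not tested.

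Lists for other tissues and for general cell functions had few shared genes. None of 29 testis, 26 accessory gland or 12 muscle genes was called in the limma fit (medians -0.06, -0.10 and 0.03), where 8.81% of all genes were called. Of them 0, 1 and 1 had an unadjusted p under 0.05, both lower. These medians average over the sexes: in males they were -0.24, -0.28 and 0.03 and in females 0.13, -0.07 and -0.01. Testis and accessory gland transcripts were dim in females, with sums of 752 to 3106 and of 1589 to 10119. A call of the average was hardly possible for such genes, so the lack of calls does not show that these tissues were unchanged. Summed testis signals were 39360 to 50408 in mutant against 50204 to 57948 in wild-type males. The eggshell and yolk list (18 genes) had 4 lower and none in all pairs, with medians of -1.59 in males and 0.12 in females. Its summed signal was 5808 and 3455 on wild-type male arrays 1 and 2, against 526 on array 3 and 300 to 525 in mutant males. The male median without those 2 arrays was not taken. The oogenesis list (22 genes) had 2 lower, of which piwi, which silences transposons in the germ line, in all pairs (-0.73 ± 0.19, adjusted p = 0.0349, a call lost under 13 of 25 alternatives). Among 39 cuticle protein genes Cpr72Ec rose by 1.15 ± 0.20 (adjusted p = 0.00446) and Cpr51A (-0.68 ± 0.12, adjusted p = 0.00403) and Cpr65Au (-0.46 ± 0.12, adjusted p = 0.0335, a call lost under 10 of 25 alternatives) fell, the median being -0.03.

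The remaining lists held 1 shared gene or fewer with one exception. Of 40 proteasome genes 1 fell, Prosalpha6 (-0.33 ± 0.08, adjusted p = 0.0219), and of 8 photoreceptor genes 1 rose, inaC, a protein kinase of the light response (0.30 ± 0.07, adjusted p = 0.021), with medians of -0.08 and 0.05; each lost the call under 6 of 25 alternatives (adjusted p up to 0.182 and 0.185). Of 23 genes of insulin, TOR and AMPK signalling and of 40 cytosolic ribosomal proteins 1 each was called higher, neither in all pairs (medians 0.00 and 0.05), and of 8 adult fat-body markers 1 was higher and 2 lower, none in all pairs (median -0.16). The 10 larval fat-body genes had 3 higher and 2 of them in all pairs, Fbp1 and Idgf5 (0.44 ± 0.09, adjusted p = 0.0114), with a median of 0.34; the study named genes of this list from these arrays.

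Probe sets of a shared gene did not always move together. Genes were taken here by a single symbol or, where the annotation has none, by the study's name, as for phr and nemy. Among the 533, 43 such genes had other tested probe sets, 72 in number, of which 48 (66.7%) had the same direction and 15 were also called that way. The other 24 had the opposite direction and 2 of these were called. The clearest case was teq, which encodes a large serine protease known from studies of memory. Its probe set 1626427_a_at read 83.6, 93.5 and 94 in mutant against 4.3, 5.6 and 12.3 in wild-type males and 60.2, 64.7 and 78.9 against 17.6, 8.5 and 8.8 in females (2.12 ± 0.15, adjusted p = 3.45e-06). Its probe set 1624957_a_at read 533.3, 579 and 360.1 against 982.4, 960.8 and 937.9 in males and 258.5, 266.3 and 316.9 against 573.2, 547.8 and 675.7 in females (-1.02 ± 0.11, adjusted p = 0.000139). Both were among the 533, in opposite directions.

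Other genes had 1 probe set that moved and 1 that did not pass. The CG5953 probe set 1637499_s_at read 93.6 to 115.3 against 69.5 to 74.8 in males and 202.1 to 244.4 against 192.6 to 265.8 in females (0.23 ± 0.10, adjusted p = 0.163), beside the 13.3-fold rise of 1632683_s_at. For kumpel, a transporter gene of the list above, the 5 probe sets tested gave 1.08, 0.59, 0.58, 0.57 and 0.21, all positive, of which the last did not pass (adjusted p = 0.412) and 3 had the same direction in all 18 pairs. Differences between the probe sets of a gene were not themselves tested.

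**Figure D5:**
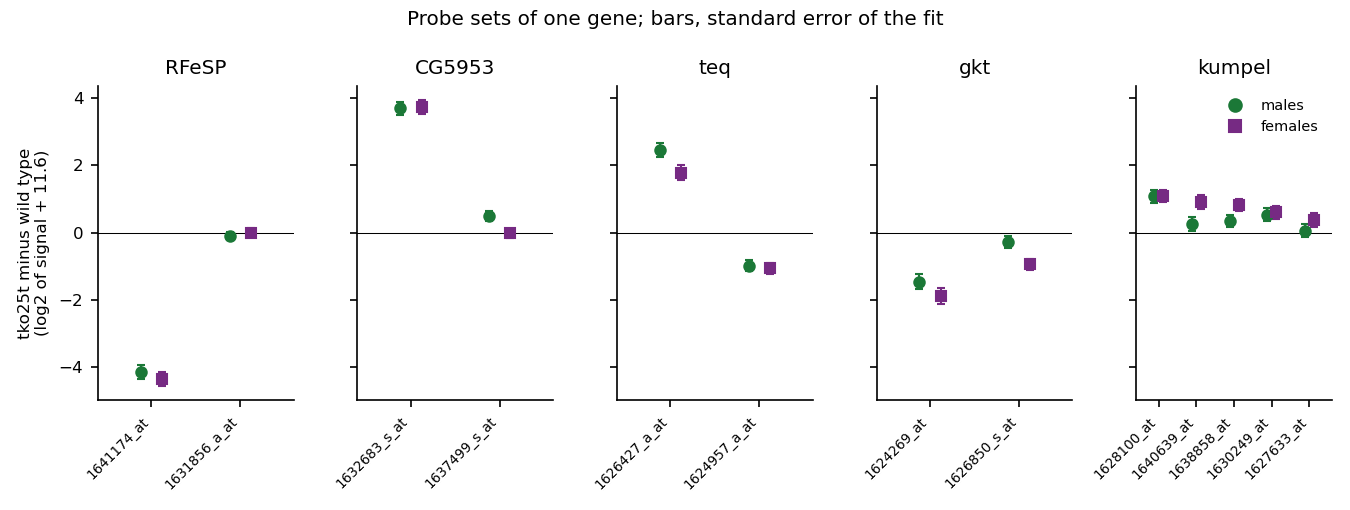
For RFeSP, CG5953, teq, gkt and kumpel, each position on the horizontal axis is 1 probe set and each symbol on the vertical axis its log2 difference tko25t minus wild type in males (green circles) or females (purple squares), with bars of 1 SE. The probe sets of RFeSP stand at -4.24 and -0.05 and those of teq at 2.12 and -1.02 in the average over the sexes, with males and females on the same side of 0 for both teq probe sets and for 1641174_at of RFeSP.

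The shared genes were spread over the chromosome arms. They made up 3.92% of the tested genes on X, 5.12% on 2L, 5.25% on 2R, 4.87% on 3L, 4.23% on 3R and 1.79% on chromosome 4, against 4.67% over all 9449 placed genes. Within 50 genes on each side of tko, a stretch that could have stayed linked to the mutation through the outcrosses, 68 genes were tested and 4 (5.88%) were shared, 3 risers and 1 faller. These were Cyp4d1 (0.68 ± 0.09), CG3071 (0.75, adjusted p = 0.00327), Spg7 (0.36 ± 0.07) and Smyd3 (-0.61, adjusted p = 0.0201), and the share called in either direction there was 7.35% against 8.55% over all placed genes.

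Neighbouring genes were sometimes shared together. In 31 pairs of adjacent tested genes both were among the shared genes, 22 with the same and 9 with the opposite direction. Of all 9449 placed genes 4.67% were shared, 290 risers and 151 fallers. How many such pairs that share alone would give was not counted, so the 31 are a description and no result on clustering. Same-direction pairs included NimC1, Cyp28a5 and NimC2 in a row, of which the former 2 rose by 1.16 and 1.22, CG13658 and CG11893 (0.91 and 1.95), Tsp42Ec and Tsp42Ed of the tetraspanin membrane proteins (0.48 and 0.54), and CG15353 and Nplp4 (-0.99 and -1.83). Opposite pairs included Pepck2 and Pepck1, Cyp6a17 and Cyp6a23, and Cyp6a14 and Cyp6a13 (-0.49 and 0.41). Of 29 tetraspanin genes 5 were called higher, 4 in all 18 pairs, with a median of 0.03, and of 8 genes of the alpha-esterase cluster 1 was called higher and 3 lower, 2 of the latter in all pairs, among them alpha-Est2 (-1.03 ± 0.14, adjusted p = 0.00102); both families were chosen after their values were seen.

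The arrays of a group ranked unevenly among the risers. Mutant female array 2 was the lowest of the 3 mutant female arrays for 237 of the 347 risers (68.3%), against 70 for array 1 and 40 for array 3. Among the 186 fallers the same array was the lowest for 75 and the highest for 72. Without it 892 probe sets met the rule, 516 of them among the 533, and 180 were called in each sex with 1 direction rather than 91. Mutant female array 2 also had the lowest summed larval fat-body (4240), accessory gland (1589) and muscle (29795) signals of its group and the highest oogenesis (18167) and eggshell and yolk (89882) signals, and the part of these tissues in its values was not tested. Other arrays were uneven too. Wild-type female array 3 was the highest of its group for 51% of the risers, and mutant male array 3 and mutant female array 1 for 48.4% each. The same shares over all probe sets tested were not taken.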

How the data were processed

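Total RNA of whole flies was hybridized to 12 Affymetrix Drosophila Genome 2.0 arrays. The deposited signal intensity of each probe set was computed by the authors with the GCOS software, on a linear scale, and every array has a trimmed mean of 150; the table analysed here holds signals only, with no detection calls. No column was left without a sample (0 unmapped). Here 11.6, the median of the arrays' 25th percentiles, was added before taking log2, the 183 control probe sets were left out, and 11547 of 18769 probe sets were kept, those among the highest mean signals over the male or over the female arrays, in the numbers that the study's detection filter kept in each sex. A linear model with 4 sex-by-genotype groups was fitted with limma 3.58.1 in R 4.3.3 with an intensity trend, and the contrast was the mean of the male and female differences, with Benjamini-Hochberg adjustment over all probe sets tested and calls at 0.05. Each sex was also fitted alone. The scripts were tested on simulated data. The number of arrays, 3 a group, limits the precision, and p-values measure the spread between independent groups of flies.

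Probe sets were named from the platform annotation, and where that gives no symbol from the names the study uses; 13646 probe sets have 1 symbol, 402 several and 4721 none, and of those with 1 symbol 13543 matched a current gene record. The genes named are the 15 largest rises and falls among the shared probe sets, up to 3 called genes of each of 37 lists (or its brightest 2), tko and the genes the study names; further genes, families and probe set pairs were chosen after their values were seen. The members and lists were chosen with earlier results of these data known. Alternatives were other offsets and filters, quantile normalization, no trend, array weights, replicate blocks, each array left out and groups of arrays left out. A further one was a SAM test rewritten here after the study's, with s0 of 20, a fold of 1.5 and a false discovery rate of 2.5%. The study filtered on detection p-values and also used RMA signals, and neither was at hand here. No sequences or coordinates are given, since no genome was used here.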

Additional observations from a re-analysis of the deposited data

Results flagged for a closer look

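For 3 of the genes reported or listed the genotype difference itself differed between the sexes, by the limma test of the difference between the male and the female difference. For Sdic3, a sperm dynein gene of a multicopy family, the male difference exceeded the female one by 2.46 on the log2 scale (adjusted p = 0.000153), with 352, 347.1 and 302 in mutant against 42.5, 40.7 and 42.1 in wild-type males and 44.5, 39.3 and 37.9 against 36.9, 28.3 and 33.4 in females; it is a shared gene by its direction, though in females alone the adjusted p was 0.570.

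The ribosomal protein gene RpL37-1 had a male difference 1.39 larger than the female one (adjusted p = 0.00181), from a rise of 1.41 in males and 0.02 in females, and was not a shared gene. For osk, a determinant of germ cells laid down in the egg, the male difference was lower than the female one, by -2.20 (adjusted p = 0.0491), with 6.6, 2.3 and 1.6 in mutant against 101.5, 82.2 and 41.7 in wild-type males, of which arrays 1 and 2 carried eggshell and yolk transcripts; it was not a shared gene.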

How the results depend on the processing

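The 972 calls of the averaged effect became 2931 with array weights (1498 higher and 1433 lower, 51.1% higher against 65.9%; the estimation of the weights stopped before it converged), 340 without the 3 arrays with the highest other-sex sums and 591 without the 2 mutant arrays with the highest larval fat-body sums, and ranged from 551 to 1290 when 1 array was left out, lowest without female tko25t replicate 3 (599 without female wild type replicate 1 and 571 without replicate 2) and highest without female tko25t replicate 2. The 533 shared probe sets became 295 and 483 without those 3 and 2 arrays (245 and 360 of them the same) and ranged from 409 to 892 with 1 array left out. The 91 called in each sex became 55 without a filter, 60 without the trend, 291 with array weights, 137 with a replicate block, 53 by SAM, 36 and 55 without the 3 and the 2 arrays, and 32 to 180 with 1 array left out (59 and 32 without female tko25t replicates 1 and 3, 45 and 40 without female wild type replicates 1 and 2). The 53 by SAM come from the rewritten test and are not the study's count. The study lists more genes than that with the same direction in both sexes. The 2 groups of arrays left out were chosen after seeing the data. The other planned settings gave 831 to 1124 calls of the averaged effect.

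With the replicate block the averaged effect had 906 calls (870 as a random block shared by the sexes) and 497 (508) probe sets were shared. Same-numbered male and female arrays of a genotype correlated at 0.03, 0.11 and 0.08 in mutants and at 0.15, -0.08 and 0.15 in the wild type, so the numbers were not taken to pair samples; a random block within a sex was not run, since each block then has 1 array. None of the 107 called probe sets among the named genes changed sign under an alternative. Of these, 68 kept their call under every one of the 25 that tested them, while 39 lost it under at least 1. The stricter filters did not test all of them, osk for example. Sign changes of named probe sets that were not called were not counted. Signal over background limits the dimmest values, such as CG32523 and 1637046_at.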
